A study of Rattus norvegicus with 24 samples.

Results

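The genes described here encode translation initiation factors (*Eif*), elongation factors (*Eef*), ribosomal proteins (*Rpl*, *Rps*) and the ribosomal S6 kinases that share the *Rps* prefix. They were taken from the gene names of a custom Agilent array by their prefix, leaving out genes that the study's own lists of MHC and NKC probes hold, which removed *Rps18*. The rule gave 70 probes for 62 genes, of 8453 probes for 7263 named entries on the array. Of the 62 genes, 56 had 1 probe and 6 had several. All 70 probes matched a current rat RefSeq symbol, 34 by accession and 36 by symbol or synonym, and old names such as *Eif3s6* are given below as the current ones (*Eif3e*). The ribosome itself is thinly covered: *Rpl6*, *Rpl41*, *Rps27* and *Rps4x* are the ribosomal protein genes among the members.

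The RNA came from paw skin of 12 male BN rats aged 15 weeks. A skin piece of each rat was kept for 3 days with syngeneic BN lymphocytes and another with allogeneic PVG lymphocytes. Both lymphocyte populations had first been cultured for 7 days with irradiated BN splenocytes in a mixed lymphocyte reaction (MLR). The RNA of both explants of a rat was hybridized together on 2 arrays with exchanged dyes, so that 24 arrays on 3 slides give 12 independent rats. The co-culture models a graft-versus-host reaction without blood supply, and the RNA of an explant is that of the skin together with the added lymphocytes that stayed in it, so that fewer cells of a type and less RNA per cell cannot be told apart.

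Translation starts when eIF2, loaded with initiator tRNA, joins the small ribosomal subunit together with eIF1, eIF1A, eIF3 and eIF5. The eIF4 factors bring in the capped mRNA, eIF5B joins the large subunit, and eEF1 and eEF2 then carry the growing chain forward. Cells tune the process mainly at the protein level, by kinases that phosphorylate the eIF2 alpha subunit, by eIF2B, which reloads eIF2 with GTP, by the 4E-binding proteins, which hold back the cap-binding factor eIF4E, and by the kinase of eEF2. Arrays measure none of this phosphorylation, and the values below are mRNA levels.

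The signal of a gene is that of a 60-base probe. The first 30 bases of 9 probes are printed 5′ to 3′ with G and C in capitals, because the base composition of the probes went with the values of a rat described below. The first 4 are the initiation factor genes that stood highest in that rat, *Eif4a1* is the paralog of *Eif4a2*, *Eif2b2* is a gene that did not stand high in it, and the last 3 are initiation factor genes with a significant change over all rats. In all 60 bases G and C made up 45% in *Eif3e*, *Eif5*, *Eif4a1*, *Eif4b* and *Eif3l* and 38.3% in *Eif2s2* and *Eif4a2*. They made up 53.3% in *Eif2b2* and 43.3% in *Eif3f*, and the printed bases alone do not show these shares.
Eif3e: taatCaGaaCaGtaGatCaGaGGCtCCCaa
Eif5: aCaCttaGGaaGGtCttGGGCttCtGttCa
Eif2s2: aCGtGatGGaGtaaGGaGGtGCttCttaaa
Eif4a2: CtaGCatatCtGCCtttattGtGtttGtCa
Eif4a1: tCCCCaGGtGaGGGGaGCaGGGGaGaGaaa
Eif2b2: ttatCtCCaaCattGGtGGGaatGCaCCGt
Eif4b: CaCaGCaaatttCttCGGtGGatttGattG
Eif3f: GtCaaCCaaGtaCCCaaGataGttCCtGat
Eif3l: CtatGGGGatttCttCatCCGGCaGatCCa

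The array files place these probes on build rn3, *Eif3e* at chr7:79034090-79034995 on the minus strand, *Eif5* at chr6:136324557-136324616 on the plus strand, *Eif2s2* at chr3:145252108-145252167 on the minus strand and *Eif4a2* at chr11:80008389-80008448 on the minus strand. The paralog *Eif4a1* lies at chr10:56497914-56497973 on the minus strand and *Eif2b2* at chr6:109275780-109275839 on the plus strand. The probe of *Eif4b* lies at chr7:140912544-140912603 on the plus strand, that of *Eif3f* at chr1:166510089-166510148 on the minus strand and that of *Eif3l* at chr7:117106922-117107793 on the plus strand. The intervals of *Eif3e* and *Eif3l* are longer than the 60 bases of the probe, which places these probes in more than 1 block of the genome. Exon and UTR positions on this build were not used here.

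Values are log2 ratios of the sample labelled as allogeneic over the sample labelled as syngeneic, per rat. The sign was taken from the dye labels, and on these labels it runs opposite to the direction in the study's own tables. In quantitative PCR on some of these sample pairs, the study found *Aif1* and *Cd3z* higher in allogeneic than in syngeneic explants. That assay does not rest on the dye labels, and its direction is opposite to that given below for *Aif1* and for T cell genes. Whether the labels are exchanged was not tested, so that every sign below depends on the labels being right. Spots well above background made up 74.8% to 99.9% of an array in either dye. On the same labels 4 of 8 probes of T cell genes and 2 of 5 of macrophage genes were lower in the sample labelled as allogeneic, *Lck* by a log2-fold change of -0.70 (adjusted p = 0.00389) and *Aif1* by -1.27 (adjusted p = 0.000103), and none was higher, while none of 3 B cell probes was called (1 at an unadjusted p under 0.05). Of the skin markers looked for, the keratinocyte gene *Tp63* and the fibroblast gene *Col1a2* had a probe, and both were well above background in both explants on all 24 arrays. *Col1a2* was higher in the sample labelled as allogeneic, by 0.55 (SE 0.11, adjusted p = 0.00399), in 11 of 12 rats, and *Tp63* had 0.30 (adjusted p = 0.351). The part of these markers in the results on translation genes was not tested. Of the 70 translation probes, 60 were well above background in both samples on all 24 arrays. The others were dim on some arrays, most of all *Ago3*, *Ago4* and the dimmer *Rps6ka6* probe, which exceeded background on 4 to 6 of 24 arrays in each sample.

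Rat 8 stood apart from the rest, and the fits below are given with and without it. Over all probes its ratios correlated with the mean of the other rats at r = 0.22, against 0.53 to 0.83 for the others. Its own 2 arrays repeated each other at r = 0.94 over all probes, so that both arrays carried the same pattern. Rat 10 differed in another way: its first array was far brighter than any other, with a median Cy5 intensity of 25640 against 269 to 415 on the remaining arrays, and its 2 arrays correlated at r = 0.13.

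**Figure D1:**
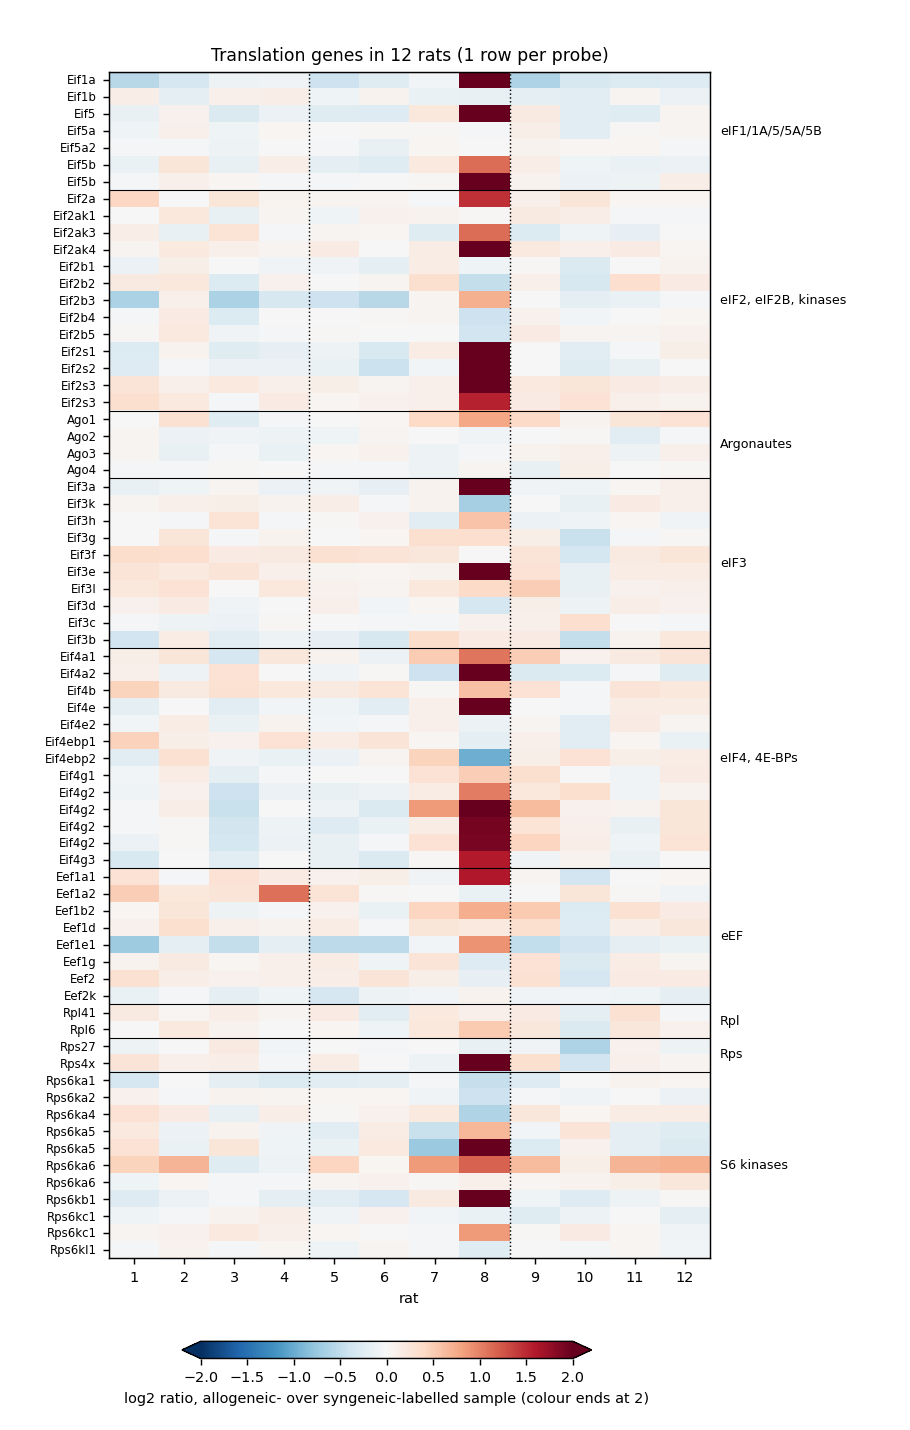
Log2 ratio of the sample labelled as allogeneic over the sample labelled as syngeneic for the 70 translation probes (rows, by functional group) in 12 rats (columns; dotted lines separate the 3 slides). Colour ends at a log2 ratio of 2 in either direction, and the column of rat 8 holds 26 of the 27 values of 1 or more.

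In rat 8 the translation genes spread far more widely than in any other rat. The SD of the 70 ratios was 1.22 in rat 8 and 0.16 to 0.24 in the other 11 rats, and their median was 0.51 against -0.09 to 0.10. The whole array spread more widely in rat 8 as well, with an SD over all probes of 0.71 against 0.21 to 0.38. A ratio of 1 or more, which is a doubling, was measured for 26 of the 70 probes (37.1%) from 21 genes in rat 8, against 964 of the 8453 probes of the array (11.4%). In the other 11 rats together 1 value reached that size, *Eef1a2* at 1.11 in rat 4. In rat 8, 38 of the 70 probes (54.3%) lay above all other rats, where 31.0% of all probes did. Another 11 of the 70 lay below all other rats, a count that was not made over all probes.

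*Eif3e*, a subunit of the eIF3 scaffold on the small ribosomal subunit, had the highest value. Its ratio was 4.09 in rat 8, a 17.0-fold difference, and -0.16 to 0.28 in the other 11 rats. *Eif5*, which makes eIF2 hydrolyse its GTP at the start codon, stood at 3.77 in rat 8 and at -0.30 to 0.22 elsewhere. *Eif2s2*, the beta subunit of eIF2, reached 3.77 against -0.43 to -0.01, and the RNA helicase gene *Eif4a2* reached 3.31 against -0.41 to 0.29. For each of these 4 genes rat 8 therefore lay more than 3 log2 units above the next rat. Both arrays of rat 8 gave the same picture, with 3.99 and 4.19 for *Eif3e*, 3.58 and 3.97 for *Eif5*, 3.94 and 3.61 for *Eif2s2* and 3.29 and 3.33 for *Eif4a2*.

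The 2 channels of an array also give a level for each explant, taken here as log2 intensity after scaling the arrays to a common intensity distribution and averaging both dyes. The level of *Eif3e* in the syngeneic-labelled explant of rat 8 was 10.68, and in the 10 rats other than 8 and 10 it was 14.19 to 14.61. In the allogeneic-labelled explant it was 14.77 in rat 8 and 14.41 to 14.71 in those 10 rats. *Eif5* was at 10.36 in the syngeneic-labelled explant of rat 8 against 13.69 to 14.36, and at 14.13 in the allogeneic-labelled one against 13.62 to 14.10. *Eif2s2* was at 11.25 against 14.63 to 15.14 in the syngeneic-labelled explant, and at 15.02 against 14.56 to 14.87 in the other. For *Eif4a2* the syngeneic-labelled level was 11.27 against 13.72 to 14.13 and the allogeneic-labelled level 14.58 against 13.68 to 14.36.

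The wide ratios of rat 8 thus lay with its syngeneic-labelled explant. Relative to the median of the 10 rats, 25 of the 70 translation probes were lower by 1 log2 unit or more in that explant and 1 was higher by as much, *Eif3k*. In the allogeneic-labelled explant of rat 8 none differed by 1 unit. Over the 20 explants of the 10 rats, none was lower by that much and 1 was higher. Both explants of rat 10 deviated in level, 27 and 23 probes being lower by 1 unit or more, but they did so together, and the ratios of rat 10 had an SD of 0.21 like those of the others. These counts were not made over all probes, but the whole array deviated in these explants as well. In the syngeneic-labelled explant of rat 8 the differences had an SD of 0.72 over all probes and 1.22 over the 70. In the allogeneic- and syngeneic-labelled explants of rat 10 it was 1.43 and 1.38 over all probes. Over the 70 it was 1.17 and 1.15 there.

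**Figure D2:**
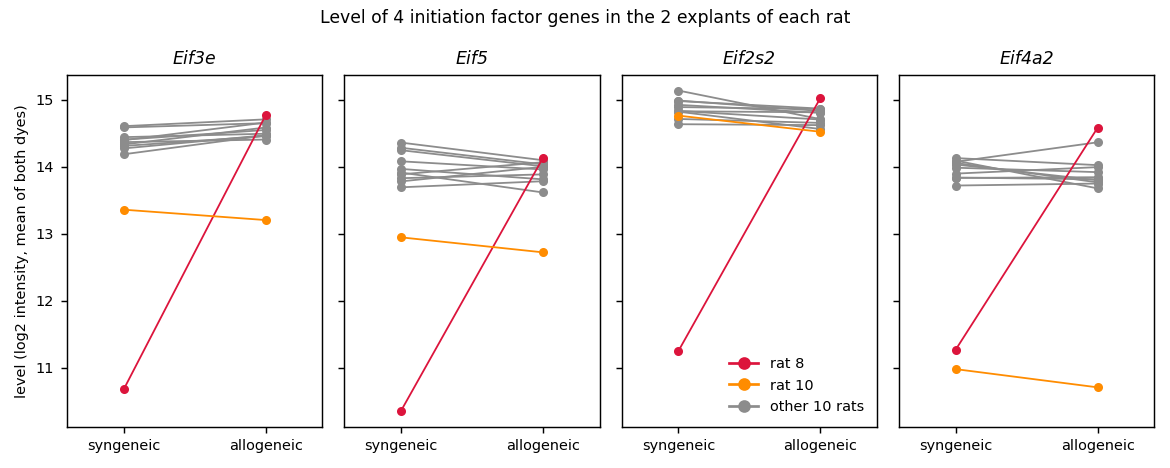
Level (log2 intensity, mean of both dyes) of *Eif3e*, *Eif5*, *Eif2s2* and *Eif4a2* in the syngeneic- and allogeneic-labelled explants, 1 line per rat. The syngeneic-labelled explant of rat 8 differs by -3.70 to -2.74 from the median of the 10 grey rats, whereas its allogeneic-labelled explant differs by 0.15 to 0.75.

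High values in rat 8 were more frequent in some groups of translation genes than in others, a difference that was not tested. All 3 subunits of eIF2, which carries the initiator tRNA, were high, with 2.67 for *Eif2s1*, 3.77 for *Eif2s2*, and 2.61 and 1.54 for the probes of *Eif2s3*. Of the 5 subunits of its exchange factor eIF2B none reached 1, with -0.47 for *Eif2b2*, -0.41 for *Eif2b4*, -0.38 for *Eif2b5*, -0.09 for *Eif2b1* and 0.71 for *Eif2b3*. *Eif2b3* still lay above all other rats, where it was -0.64 to 0.10. Among the eIF2 kinases, *Eif2ak4* (GCN2, which senses uncharged tRNA) reached 2.11 and *Eif2ak3* (PERK, which senses misfolded protein in the endoplasmic reticulum) 1.11, while *Eif2ak1* (the heme-regulated kinase) lay at 0.02.

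Of the 10 eIF3 subunits, *Eif3e* and *Eif3a*, the largest subunit, at 2.50, exceeded 1, and the other 8 lay between -0.67 (*Eif3k*) and 0.57 (*Eif3h*). Among these 8, the probes of *Eif3k*, *Eif3g*, *Eif3d* and *Eif3b* had 53.3% to 55% G and C. Those of *Eif3h*, *Eif3c*, *Eif3f* and *Eif3l* had 38.3% to 45%. Of the factors around the start codon, *Eif1a* at 2.82 and both probes of *Eif5b* at 1.11 and 2.18 exceeded 1, whereas *Eif1b*, *Eif5a* and *Eif5a2* lay between -0.15 and 0.01. In the eIF4 group 8 of 13 probes exceeded 1. They were *Eif4a2*, *Eif4a1* at 1.07, the cap-binding factor *Eif4e* at 2.18, the scaffold *Eif4g3* at 1.59, and all 4 probes of *Eif4g2*, a scaffold that does not bind eIF4E, at 1.02 to 2.75. The scaffold *Eif4g1* was at 0.49 and the cap-binding homolog *Eif4e2* at -0.12. *Eif4ebp2*, which encodes a 4E-binding protein, had the lowest ratio of all members, -0.98.

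In rat 8, 1 of 8 elongation factor probes and 1 of 4 ribosomal protein probes exceeded 1. *Eef1a1*, which delivers tRNAs to the ribosome, was at 1.60, whereas *Eef2*, which moves the ribosome along, was at -0.16 and *Eef1a2* at -0.14. *Eef1e1* at 0.90 and *Eef1b2*, a subunit of the exchange factor of eEF1A, at 0.72 lay above all other rats. *Rps4x* was at 2.03, *Rpl6* at 0.53, *Rpl41* at 0.10 and *Rps27* at -0.15. Among the S6 kinases, which act downstream of mTOR or of MAP kinases, *Rps6kb1* reached 2.74, and *Rps6ka4*, at -0.61, was the lowest. Probes of the same gene shared their side in rat 8 in 5 of the 6 genes with several, *Rps6kc1* being the exception with -0.13 and 0.85.

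High ratios in rat 8 went with a low G and C content of the probe. All 26 probes at 1 or more had at most 45% G and C, a bound chosen after the values were seen. Of the 53 probes up to that content 26 reached 1 (49.1%), and of the 17 probes above it none did. Over the whole array the shares were 14.7% of 6326 probes and 1.46% of 2127. Across the 70 probes the ratio of rat 8 correlated with the G and C content at r = -0.42, which describes probes of a single pair of hybridized samples. The same value was -0.44 in rat 10 and between -0.02 and 0.31 in the other 10 rats. The highest members of rat 8, *Eif3e* and *Eif5*, had 45%, the same as *Eif4b*, *Eif3l* and *Rpl6*, which lay at 0.58, 0.39 and 0.53. *Eif4ebp2*, with the lowest content of all members (30%), had the lowest ratio, -0.98. The dim probes of *Eef2k* (35%) and *Ago3* (38.3%) lay at 0.07 and -0.03. The part of base composition in these values was not tested.

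**Figure D3:**
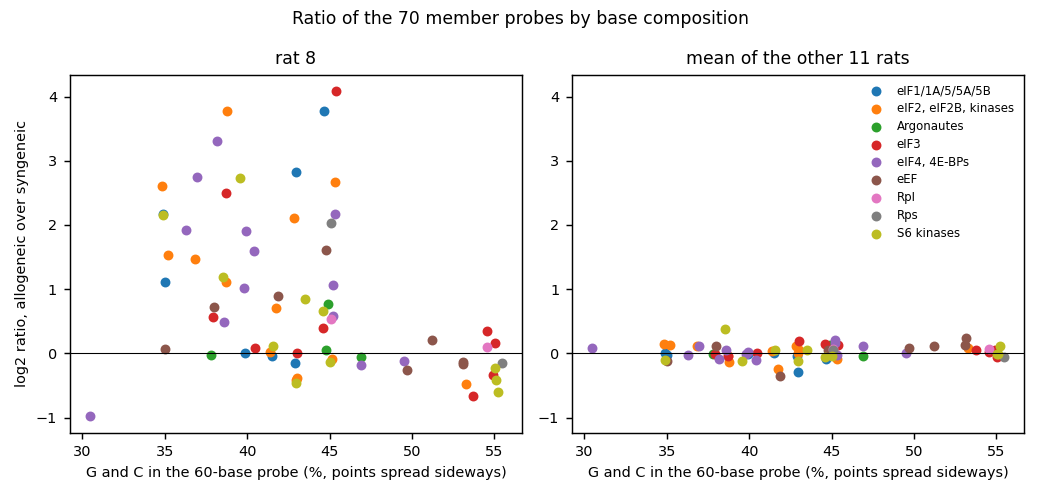
Log2 ratio of the 70 translation probes against their G and C content in percent, in rat 8 (left) and as the mean of the other 11 rats (right), coloured by functional group and shifted sideways by up to 0.5 so that points can be seen. Values of 1 or more occur in rat 8 at 45% or less, and the means of the other rats lie between -0.35 and 0.38.

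Over the 12 rats 6 of the 70 translation probes changed at an adjusted p under 0.05 (limma, Benjamini-Hochberg over all 8453 probes), 4 higher and 2 lower in the sample labelled as allogeneic. That is 8.57% of the members, and 17.3% of all probes passed the same test, 8.78% higher and 8.48% lower. The median log2-fold change of the members was 0.07 and that of all probes 0.01. The 4 genes that stood highest in rat 8 had wide errors and were not called. *Eif3e* had 0.46 (SE 0.31, adjusted p = 0.361), *Eif5* 0.23 (SE 0.31, adjusted p = 0.666), *Eif2s2* 0.18 (SE 0.31, adjusted p = 0.740) and *Eif4a2* 0.19 (SE 0.27, adjusted p = 0.683).

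The called genes changed by little. *Eif4b*, which stimulates the helicase eIF4A, had a median ratio of 0.24 over the rats, from -0.04 to 0.58. It was higher in 11 of 12 rats, with a mean of 0.24 (SE 0.05, adjusted p = 0.00329), a 1.18-fold difference. *Eif3l* had a median of 0.15, from -0.14 to 0.49, and was higher in 11 of 12 rats by 0.17 (SE 0.05, adjusted p = 0.0299). *Eif3f* had a median of 0.23, from -0.36 to 0.36, and was higher in 10 of 12 rats by 0.18 (SE 0.05, adjusted p = 0.0356). The lowest value of each of these 3 genes was that of rat 10.

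*Rps6ka6* (RSK4) showed the largest called difference. Its brighter probe had a median of 0.53, from -0.25 in rat 3 to 1.18 in rat 8, and was higher in 10 of 12 rats by 0.45 (SE 0.12, adjusted p = 0.0166), a 1.37-fold difference. Its dimmer probe, which exceeded background on 4 to 6 arrays per sample, had 0.05 (SE 0.02, adjusted p = 0.157). *Rps6ka1* (RSK1) was lower, with a median of -0.18, from -0.46 to 0.08, and a mean of -0.15 (SE 0.05, adjusted p = 0.0411), 3 of 12 rats being above 0. *Eef2k*, the kinase that inactivates eEF2, had a median of -0.09, from -0.33 to 0.07, and a mean of -0.11 (SE 0.03, adjusted p = 0.0215), with rat 8 as the only rat above 0. Its probe exceeded background on 19 and 21 of 24 arrays.

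Each slide held 4 rats and both samples of each. The slide means of *Eif4b* were 0.28, 0.26 and 0.18, those of *Eif3l* 0.18, 0.19 and 0.13, and those of *Eif3f* 0.26, 0.20 and 0.08. *Rps6ka6* gave 0.19, 0.63 and 0.54, *Rps6ka1* -0.19, -0.23 and -0.04, and *Eef2k* -0.12, -0.11 and -0.10. All 6 thus kept their sign on every slide. With the slide as a block in the fit 5 of the 6 calls held, and *Eif3l* did not (adjusted p = 0.0516). With median centring of the arrays in place of loess, the brighter *Rps6ka6* probe (adjusted p = 0.0173) and *Eef2k* (adjusted p = 0.0130) kept their calls. *Eif4b* at 0.14 (adjusted p = 0.0739), *Rps6ka1* at -0.18 (adjusted p = 0.0834), *Eif3f* at 0.02 (adjusted p = 0.935) and *Eif3l* at 0.05 (adjusted p = 0.647) lost theirs.

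Without rat 8 the fit called 17 of the 70 translation probes, 10 higher and 7 lower, which is 24.3% of the members against 24.7% of all probes. The 6 calls over 12 rats were all among them. The median of the members moved to 0.01. The sign of the mean turned for 19 of the 70 probes. All 17 kept their sign, still without rat 8, under 3 alternatives chosen after seeing the data. Of the 17 calls, 15 held with the processed signals of the scanner software, 12 with median centring and 13 with the slide as a block. *Rps6kb1* lost its call in all 3, *Eif3l* in 2, and *Rps6ka1*, *Eif2b3*, *Eif3f*, *Eif3e*, *Eif2a* and *Rps6ka4* in 1 each.

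**Figure D4:**
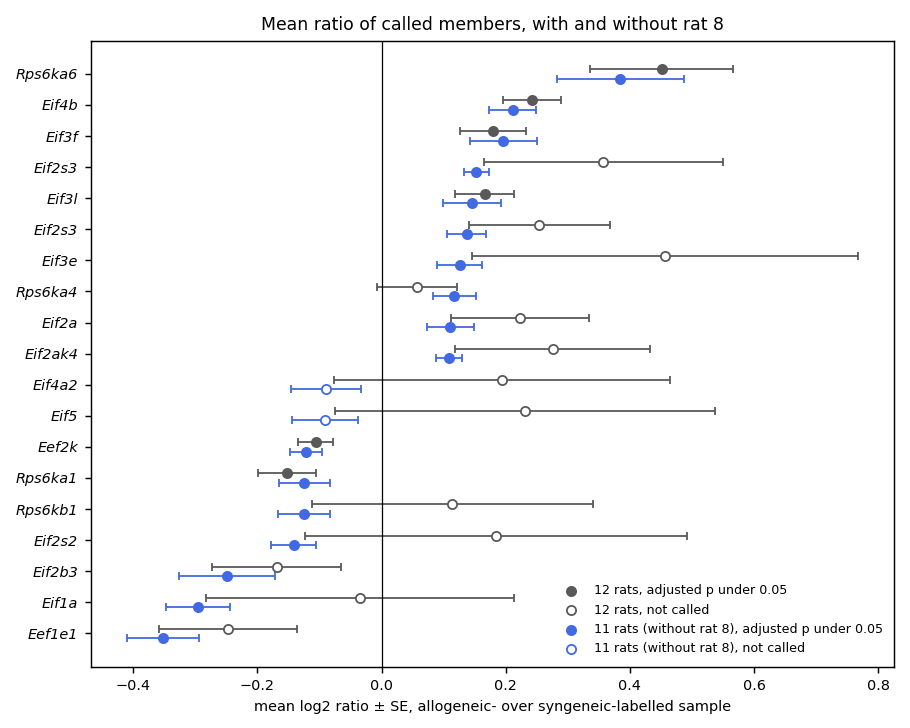
Mean log2 ratio with its SE of the translation probes called over 12 rats or over 11 rats, and of *Eif5* and *Eif4a2*, over 12 rats (grey) and without rat 8 (blue). Filled points have an adjusted p under 0.05. The means of *Rps6kb1*, *Eif2s2*, *Eif5* and *Eif4a2* lie above 0 with rat 8 and below 0 without it.

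The subunits of eIF2 did not move together in the 11 rats. *Eif2s3*, the gamma subunit that binds GTP and the initiator tRNA, was higher by both probes, by 0.15 (SE 0.02, adjusted p = 0.000258, 11 of 11 rats) and by 0.14 (SE 0.03, adjusted p = 0.00670, 10 of 11 rats). *Eif2s2* was lower by -0.14 (SE 0.04, adjusted p = 0.0128), below 0 in all 11 rats. *Eif2s1*, the alpha subunit that the eIF2 kinases phosphorylate, had -0.09 (SE 0.05, adjusted p = 0.170). *Eif2ak4* was higher in 11 of 11 rats by 0.11 (SE 0.02, adjusted p = 0.00288), and *Eif2b3* was lower by -0.25 (SE 0.08, adjusted p = 0.0324), 3 of 11 rats being above 0. *Eif2a*, which encodes a separate factor and not the alpha subunit, was higher by 0.11 (SE 0.04, adjusted p = 0.0479).

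Among eIF3 subunits *Eif3e* joined *Eif3f* and *Eif3l* without rat 8, at 0.13 (SE 0.04, adjusted p = 0.0245), higher in 10 of 11 rats, while the other 7 subunits lay between -0.06 and 0.06 and were not called. *Eif1a*, which keeps the small subunit open for scanning, was lower in all 11 rats by -0.29 (SE 0.05, adjusted p = 0.00145). *Eef1e1*, which encodes a protein of the multi-synthetase complex, was lower in all 11 by -0.35 (SE 0.06, adjusted p = 0.000998). *Eif5* at -0.09 (adjusted p = 0.249) and *Eif4a2* at -0.09 (adjusted p = 0.288) were not called, and in the eIF4 group *Eif4b* alone was called of 13 probes. Of the S6 kinases *Rps6kb1*, which encodes the S6 kinase downstream of mTOR, was lower by -0.12 (SE 0.04, adjusted p = 0.0460) and *Rps6ka4* higher by 0.12 (SE 0.03, adjusted p = 0.0260).

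No ribosomal protein gene among the members was called with or without rat 8, and none of these had an unadjusted p under 0.05 in limma. Without it *Rpl41* had 0.07 (SE 0.05), *Rpl6* 0.06 (SE 0.04), *Rps4x* 0.06 (SE 0.05) and *Rps27* -0.06 (SE 0.06), with adjusted p between 0.313 and 0.483. The Argonautes that carry the old name *Eif2c*, which act in RNA silencing and not in initiation, had no call among 4 probes either way (1 at an unadjusted p under 0.05), the brightest being *Ago1* at 0.18 over 12 rats (adjusted p = 0.107). *Eif5a*, the brightest of its group, had -0.0033 (SE 0.03, adjusted p = 0.954), and *Eef1a1*, the brightest elongation factor, 0.18 (SE 0.13, adjusted p = 0.403).

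Paralogs were compared within rats, and with them pairs of eIF2 subunits and *Eif5* with *Eif5b*, which are not paralogs. The array held 9 of the 15 listed pairs, and their differences were tested by exact two-sided permutation of their signs in the 12 rats, with p-values adjusted over the 9 pairs. None passed with all 12 rats, nor had an unadjusted p under 0.05, and the adjusted p of every pair was 0.978. *Eif4a1* minus *Eif4a2* had a mean of 0.04 (SD 0.83) over 12 rats and a median of 0.22, with *Eif4a1* the higher in 9 of 12 rats. Without rat 8 that mean was 0.25 (SD 0.42, adjusted p = 0.193). *Eef1a1* minus *Eef1a2* was -0.19 (SD 0.33, adjusted p = 0.193) without rat 8, the *Eef1a2* probe being dim (mean log2 intensity 6.77 against 16.90 for *Eef1a1*). *Eif2s2* minus *Eif2s3*, subunits of the same complex, was -0.12 (SD 0.59) over 12 rats and -0.29 (SD 0.15) without rat 8, below 0 in all 11 rats (exact p = 0.000977, the smallest that 11 rats can give, adjusted p = 0.00879). No other pair, and so no pair of paralogs, passed without rat 8.

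The dye orientations differed for many of these genes by more than the treatment did. The mean ratio changed sign between the 2 orientations for 37 of the 70 probes (52.9%), against 51.3% of all probes. The widest gap was that of *Rpl41*, with 0.75 when the allogeneic-labelled sample was in Cy5 and -0.60 when it was in Cy3. *Eif4g1* gave -0.53 and 0.71, and *Eif5a* -0.34 and 0.34. Each rat had both orientations, so that a dye effect equal in both cancels in its mean. Of the 6 called genes, *Eif3l* alone had opposite signs, at -0.01 and 0.35, and *Rps6ka6* had 0.46 and 0.44. In the rats other than rat 8 the 2 arrays correlated over the 70 probes at -0.55 to 0.35, and in rat 8 at 0.95.

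Other genes of the translation pathway were looked up in 7 lists, which gave 45 probes for 39 genes. Over 12 rats 4 were higher and 10 lower, where 8.78% of all probes were higher and 8.48% lower, and 5 of the 10 lower ones were probes of *Mrps18b*. Without rat 8 the counts were 5 and 16, where 12.5% of all probes were higher and 12.2% lower. The integrated stress response, which follows phosphorylation of eIF2 alpha, was lower in 4 of 5 probes, beside the 8.48% of all probes: *Trib3* by -0.54 (SE 0.08, adjusted p = 0.000460), *Ddit3* by -0.38 (SE 0.11, adjusted p = 0.0346), its driver *Atf4* by -0.32 (SE 0.08, adjusted p = 0.0113) and the eIF2 phosphatase subunit *Ppp1r15b* by -0.23 (SE 0.04, adjusted p = 0.00351). The fifth, *Atf3*, had -0.37 (SE 0.12, adjusted p = 0.0525) and was called without rat 8 (adjusted p = 0.0488).

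Of 10 tRNA synthetase genes *Qars1* at 0.25 (adjusted p = 0.000556) and *Kars1* at 0.11 (adjusted p = 0.00104) were higher in all 12 rats, and *Yars1* at -0.31 (adjusted p = 0.00532) was lower in all 12. Of 8 probes of mTOR and its regulators 1 was called, a probe of *Tsc1* at 0.06 (adjusted p = 0.0465), and the other *Tsc1* probe had -0.01. In the list of the mitochondrial ribosome, whose genes are not members, *Mrpl34* was higher at 0.14 (adjusted p = 0.0427) and 5 probes were lower, all of them of *Mrps18b*, at -0.25 to -0.22. Of 10 probes for termination or recycling factors, ribosome assembly and other ribosomal proteins none was called over 12 rats, with 2 at an unadjusted p under 0.05 in limma. Without rat 8 *Etf1* (-0.18, adjusted p = 0.00541), *Gnl3* (-0.25, adjusted p = 0.0109) and *Gspt1* (-0.07, adjusted p = 0.0396) were called lower. The ribosomal protein gene *Rpsa* was called higher without rat 8 (0.14, adjusted p = 0.0156). Rat 8 was high in these lists as well, with 12 of the 45 probes at 1 or more, among them the ribosome assembly genes *Npm1* at 3.22 and *Gnl3* at 3.20 and the termination factor *Etf1* at 2.36. Of 6 probes of common reference genes 3 were at 1 or more in rat 8, *Hprt1* at 2.23 and *B2m* at 1.53 and 1.85. *Gapdh* was at -0.16.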

How the data were processed

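The deposited scanner files, 1 per array, were made by Feature Extraction 9.5.1.1 per the file headers, and hold mean spot and local background intensities in Cy3 and Cy5 before any normalization, beside processed intensities. A table of log2 ratios was deposited too; neither its direction nor its background correction is given in the sources used here, and its columns ran with the turned processed ratios (r = 0.707 to 0.956; column medians -0.025 to 0.022). The labels name a PCR-based amplification kit and the methods another. Mean intensities were corrected by normexp (offset 50) and normalized by loess within arrays, without control and outlier spots. Spots of a probe were averaged, then both arrays of each rat, and limma 3.58.1 in R 4.3.3 tested the 12 rats against 0. Both samples of a rat share an array, which is the pairing. The number of rats limits the precision. Scripts were tested on simulated data. Members, lists and named genes (4 initiation factors, called members, the brightest of each group, paralogs and other pairs, called pathway genes) were chosen with earlier results of these data known, and others were named after their values were seen.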

Additional observations from a re-analysis of the deposited data

How the results depend on the processing

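The count of 6 called translation probes was 4 to 9 under 11 of 14 alternatives that kept all rats. It was 2 with median centring in place of loess, 14 with the arrays that hold the allogeneic-labelled sample in Cy5 and 23 with those that hold it in Cy3. These 3 fits called 1211, 2659 and 2500 of all probes, against 1459 in the main fit. Leaving out 1 rat gave 3 to 17 calls, with 3 without rat 1, rat 4 or rat 9 and 17 without rat 8, and medians of the members from 0.01 to 0.09. Over all probes 1250, 1257 and 1155 were called without rats 1, 4 and 9 in turn, and 2087 without rat 8. Alternatives added after seeing the data gave 20 calls without rats 8 and 10, 16 with a weight per rat, 7 of 73 probes with members taken by current symbol and, without rat 8, 16 with processed signals, 12 with median centring and 13 with the slide as a block. In the same order they called 2134, 2325, 1459, 2431, 1774 and 1935 of all probes. The replicate block, a fit of the 24 arrays with rats as random blocks, gave 9 calls, and 1729 over all probes. *Eif2s2*, not called at 0.18, was lower without rats 8 and 10 (-0.13) and, without rat 8, with processed signals (-0.14), median centring (-0.21) and the slide as a block (-0.15). Leaving out 1 rat gave -0.14 to 0.24 for *Eif2s2* and -0.12 to 0.15 for *Rps6kb1*, both below 0 without rat 8. With the allogeneic-labelled sample in Cy5 *Eif3l* was at -0.015, *Eif4g1* at -0.53 and *Rps6ka4* at -0.24, and with it in Cy3 *Eif5a* was at 0.34, *Eif4ebp2* at 0.26 and *Rpl41* at -0.60. In a fit of a single dye orientation a dye effect and the treatment cannot be told apart. *Eif3f* lost its call when any of 10 rats was left out, *Rps6ka1* for 6 rats and *Eif3l* for 5, whereas *Eif4b*, *Eef2k* and the brighter *Rps6ka6* probe kept theirs each time. *Eif2s2* minus *Eif2s3* was -0.29 to -0.082 with 1 rat left out, and it passed without rat 8 alone. The cause of these shifts was not tested. By signal over background, 3 of the 70 probes were too dim for the filter.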
